A study of Arabidopsis thaliana with 12 samples.

Results

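The 31 genes described here were similar between the genotypes in developing Arabidopsis thaliana seeds at 12 days after flowering (DAF) and near that level in wild type later, but were higher in abi3-6 seeds at 16 DAF. They were chosen by that pattern among 13513 probe sets that the platform annotation pairs with 1 gene. The rule asked that the group mean in abi3-6 at 16 DAF exceed that at 12 DAF by at least 2 log2 units (4-fold) and that the wild-type means of the same ages lie within 0.5. It also asked that abi3-6 and wild type lie within 0.8 of each other at 12 DAF and that at least 1 group mean exceed 5. AT5G26260 and AT1G29090, which also meet it, were set aside by name, and their differences are likewise a description. Since all 4 group means went into the choice, the members' differences are a description and carry no test.

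The samples were seeds dissected from siliques, in 4 groups of 3 arrays: homozygous abi3-6 seeds at 16 DAF and at 12 DAF, and wild-type Col-0 seeds at 16 DAF and at 12 DAF. Plants of both genotypes grew under long days, and each array came from a separate batch of plants. Whole seeds were used, so embryo, endosperm and seed coat RNA were read together, and a change in the share of cells cannot be told apart from a change in RNA per cell.

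ABI3 is a B3-domain transcription factor that, with its relatives FUS3 and LEC2, switches on storage protein, oil body and desiccation genes as the embryo matures. Strong abi3 alleles such as abi3-6 give seeds that stay green, do not acquire desiccation tolerance and are insensitive to abscisic acid. Late maturation in wild-type seeds normally closes with drying and metabolic quiescence, and genes for wall loosening, protein breakdown and seedling growth come into use at germination.

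Values are the deposited expression values, read as log2 units. A probe set was called dim on an array under 3.16 log2 units, the 40th percentile of all values. Across the 12 arrays 13507 to 13931 probe sets lay over that limit, and 14873 with at least 3 such arrays were tested with limma, all 31 genes among them. The oleosin AT2G25890, the measured 1 of 13 embryo and seed filling markers, was at 12.43 to 13.13 on the wild-type arrays and dim on all 6 abi3-6 arrays. ABI3 had no probe set of its own in the annotation used, so the mutated gene's level is not reported here. The array files of both genotypes at 16 DAF carry a name prefix that those at 12 DAF lack. What it marks is not stated, and it cannot be told apart from age. The titles number the wild-type arrays at 12 DAF 2-1, 2-2 and 2-3 and those of each other group 1 to 3, and what the difference marks is not stated either.

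Replicate 3 of abi3-6 at 16 DAF stood apart for these genes. It was the highest of its group for 29 of the 31 genes, against 35.5% of all probe sets tested. The same array was the highest for 77 of 106 other 1-gene probe sets whose abi3-6 mean was at least 2 higher at 16 than at 12 DAF, and the lowest for 234 of 320 whose mean was at least 2 lower. Its excess over the mean of replicates 1 and 2 had a median of 0.61 log2 units over the 31 genes, from -0.28 for AT2G24560 to 2.15 for scpl44. Replicates 1 and 2 lay above all 9 other arrays for all 31 genes, as the 3 arrays together did for 15.8% of all probe sets tested. Nothing is read from that count, since the rule chose genes high in this group. Without replicate 3 the rise ran from 1.80 to 5.07 with a median of 2.5, and the rule kept 21 of the 31, 7 being lost through the rise and 3 through the level of 5. The SD among the 3 arrays of this group had a median of 0.41 over the 31 genes and of 0.18 over all probe sets tested.

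**Figure D1:**
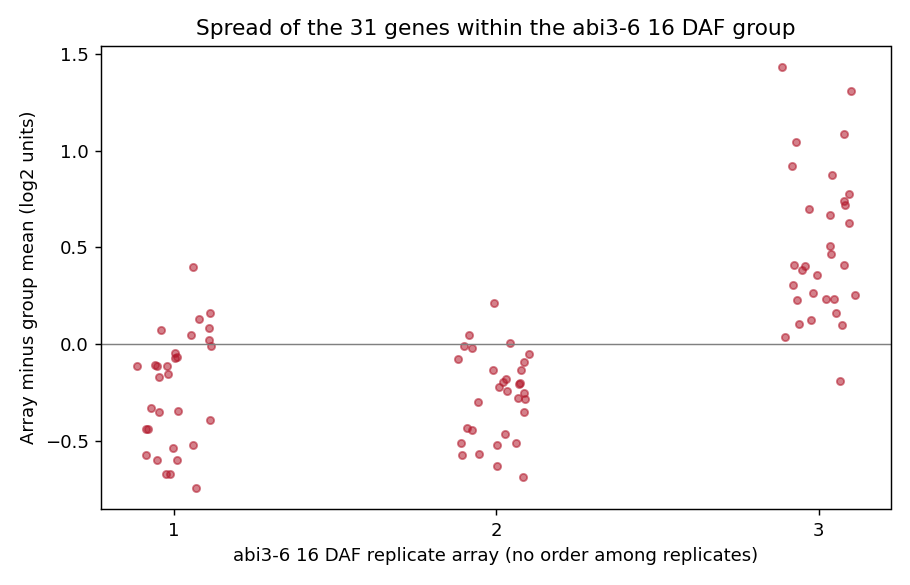
Each point is 1 of the 31 genes on 1 of the 3 abi3-6 16 DAF arrays, as its log2 value minus the gene's mean over those arrays, with a small sideways spread for legibility. Replicate 3 lies above 0 for all genes except AT2G24560 and reaches its largest excess for scpl44, AT4G29690 and TUB1.

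In abi3-6, the 16 DAF mean exceeded the 12 DAF mean by 2.05 to 5.33 log2 units over the 31 genes, with a median of 2.93, beside 0.07 over all probe sets tested. For 16 genes abi3-6 was dim on all 12 DAF arrays, so their log2 differences are the values the rule used and not measured sizes; with those arrays set at the dim limit the median was 2.55. The difference was 2 to 3 for 17 genes, 3 to 4 for 6 and 4 or more for 8. In wild type the same difference ran from -0.39 to 0.40, with 27 genes above 0 and 4 below. Its median was 0.06, beside 0.07 over all probe sets tested. For genes dim on all wild-type arrays, among them the 13 dim on all 9 other arrays, these signs give no order. At 16 DAF abi3-6 exceeded wild type by 1.60 to 5.30, with a median of 2.85. At 12 DAF the genotypes differed by -0.44 to 0.80, and 8 genes were already over 0.4 higher in abi3-6. Over all probe sets tested, abi3-6 was called higher for 35.6% and lower for 34.6% at 16 DAF, and higher for 27.1% and lower for 23.7% at 12 DAF (limma, adjusted p under 0.05); the members' differences were set by the rule and are not read against these shares. For all 31 genes the 3 abi3-6 arrays at 16 DAF lay above the 9 other arrays, as 15.8% of the probe sets tested did; nothing is read from that count, since the rule chose it. The gap between the lowest of those 3 arrays and the highest of the 9 others ran from 1.09 for AT5G66490 to 4.83 for AT1G67330, with a median of 2.13.

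**Figure D2:**
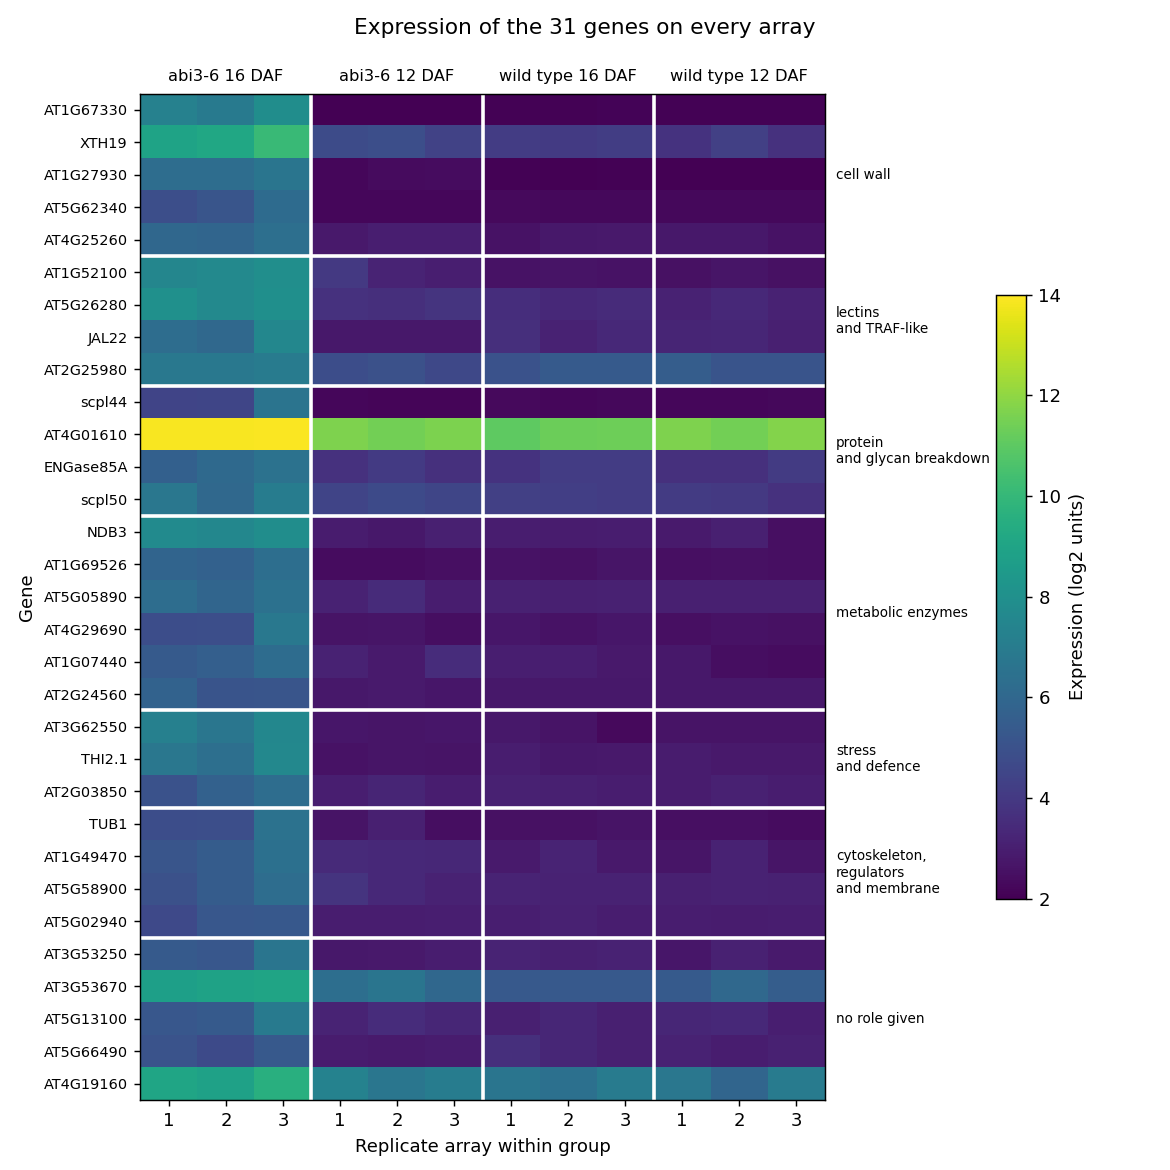
Colour gives the log2 expression of the 31 genes (rows, by role) on each of the 12 arrays (columns, 3 replicates in each of 4 groups). The abi3-6 16 DAF columns are the brightest in every row, from 4.45 for scpl44 to 13.92 for AT4G01610.

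The genes differed in whether they were over the dim limit elsewhere. In 13 of them all 9 other arrays were dim, in 11 some of the 9 were over the limit, and in 7 all 9 were. Where a comparison group was dim on all its arrays the fold is a lower bound, taken against the dim limit and written "at least". For the 13 genes dim elsewhere the bounds of abi3-6 at 16 over 12 DAF ran from at least 3.76-fold to at least 23.5-fold. The 7 over the limit throughout had measured differences of 2.05 to 4.74 log2 units, with a median of 2.29.

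**Figure D3:**
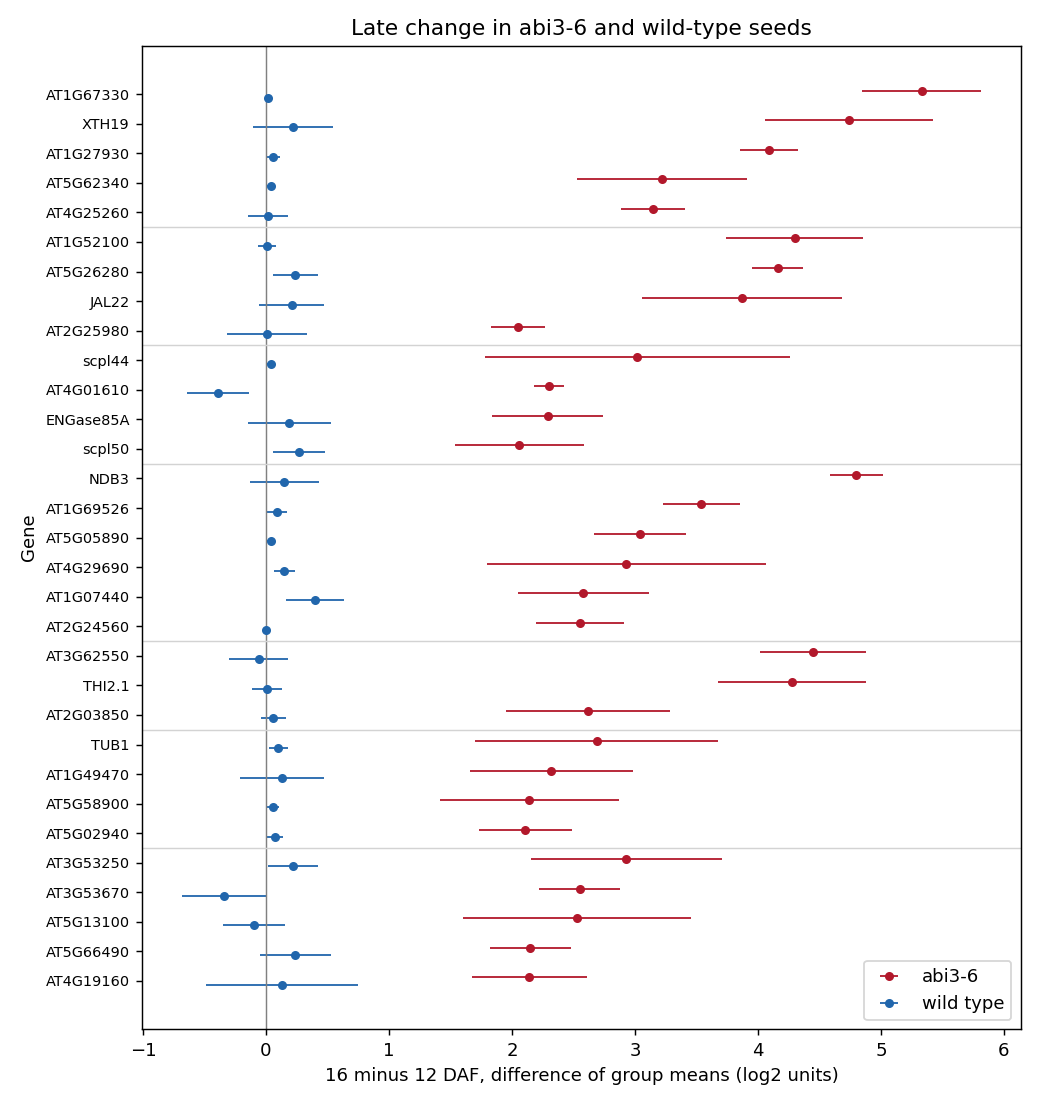
Points are the difference between the 16 and 12 DAF group means of each gene (log2 units), in abi3-6 and in wild type, and bars are the square root of the summed squared SDs of the 2 groups (n = 3 arrays each). All abi3-6 points lie at 2.05 or above and all wild-type points between -0.39 and 0.40.

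Genes of the cell wall made up 5 of the 31 and differed between the ages in abi3-6 by 3.15 to 5.33 log2 units, with a median of 4.09, or 3.27 with the 4 that were dim at 12 DAF set at the limit. XTH19, a xyloglucan endotransglucosylase/hydrolase, which cuts and rejoins the xyloglucan tethers of growing walls, was at 8.97, 9.13 and 10.13 in 16 DAF abi3-6 seeds, against 4.75, 4.89 and 4.37 in 12 DAF abi3-6 seeds, 4.11, 4.06 and 4.17 in 16 DAF wild-type seeds and 3.74, 4.27 and 3.69 in 12 DAF wild-type seeds. Its abi3-6 16 DAF arrays were far above the rest, which all lay over the dim limit, and the mean was 26.7-fold that of abi3-6 at 12 DAF and 39.3-fold that of wild type at 16 DAF. Without replicate 3 the log2 difference between the ages was 4.38. AT1G67330, of the DUF579 family whose characterised members methylate glucuronic acid of wall polysaccharides, was at 7.29, 6.93 and 7.87 in 16 DAF abi3-6 seeds, against 2.03, 2.03 and 2.04 in 12 DAF abi3-6 seeds, 2.09, 2.08 and 2.1 in 16 DAF wild-type seeds and 2.06, 2.08 and 2.07 in 12 DAF wild-type seeds. The 9 other arrays were dim, from 2.03 to 2.1, and the abi3-6 16 DAF mean was at least 18.4-fold higher. AT1G27930, of the same family, was at 6.31, 6.29 and 6.68 in 16 DAF abi3-6 seeds, against 2.23, 2.36 and 2.41 in 12 DAF abi3-6 seeds, 2.07, 2.04 and 2.06 in 16 DAF wild-type seeds and 2.02, 2.04 and 1.94 in 12 DAF wild-type seeds. This was again a gene with 9 dim arrays, at least 9.61-fold higher in abi3-6 at 16 DAF.

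The remaining wall genes belong to the invertase and pectin methylesterase inhibitor family, whose members bind those enzymes in the apoplast. AT4G25260 was at 6.03, 5.90 and 6.36 in 16 DAF abi3-6 seeds, against 2.84, 3.01 and 3.02 in 12 DAF abi3-6 seeds, 2.60, 2.79 and 2.80 in 16 DAF wild-type seeds and 2.77, 2.79 and 2.58 in 12 DAF wild-type seeds. AT5G62340 was at 4.90, 5.17 and 6.20 in 16 DAF abi3-6 seeds, against 2.22, 2.19 and 2.21 in 12 DAF abi3-6 seeds, 2.32, 2.28 and 2.26 in 16 DAF wild-type seeds and 2.24, 2.26 and 2.25 in 12 DAF wild-type seeds. Neither was over the dim limit outside abi3-6 at 16 DAF, and the bounds were at least 7.67-fold for AT4G25260 and at least 4.80-fold for AT5G62340. The 3 arrays of abi3-6 at 16 DAF were close for AT4G25260 (SD 0.24) and less so for AT5G62340 (SD 0.69), whose log2 difference between the ages was 2.83 without replicate 3.

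The family counts here and below cover only genes whose symbol or synonym in the annotation names the family, or loci on a list, and so not every gene of a family. Among 9 other expansins and xyloglucan endotransglucosylases so named and tested, enzymes and proteins that loosen walls, 3 were higher and 5 lower in abi3-6 at 16 than at 12 DAF (limma, adjusted p under 0.05), beside 27.1% and 23.5% of all probe sets tested. In wild type 1 was higher and 7 lower, beside 32.0% and 30.4%. EXPA9, an expansin, was at 7.87, 7.95 and 8.30 in 16 DAF abi3-6 seeds, against 3.60, 3.46 and 3.46 in 12 DAF abi3-6 seeds, 2.81, 2.52 and 2.79 in 16 DAF wild-type seeds and 4.55, 3.82 and 4.64 in 12 DAF wild-type seeds. It rose by 4.53 ± 0.20 (SE, limma, Benjamini-Hochberg adjusted p = 1.1e-09) in abi3-6 and fell at least 2.26-fold in wild type, where the 16 DAF arrays were dim. EXPA20 rose by 1.94 ± 0.17 (SE, limma adjusted p = 6.01e-07) in abi3-6. XTH32 fell by 4.35 ± 0.14 in abi3-6 (SE, limma adjusted p = 4.02e-11) and at least 23.6-fold in wild type. The 1 pectin enzyme tested, PME61, also fell in abi3-6, by 3.90 ± 0.23 (SE, limma adjusted p = 1.68e-08).

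Jacalin-related lectins, carbohydrate-binding proteins of which several bind the beta-glucosidases of ER bodies, gave 3 of the 31 genes. A TRAF-like gene, coding for a MATH domain, is described with them. AT1G52100, a jacalin-family lectin gene, was at 7.51, 7.63 and 7.91 in 16 DAF abi3-6 seeds, against 3.97, 3.19 and 2.99 in 12 DAF abi3-6 seeds, 2.57, 2.64 and 2.57 in 16 DAF wild-type seeds and 2.55, 2.66 and 2.56 in 12 DAF wild-type seeds. Its arrays in abi3-6 at 12 DAF were the highest outside the 16 DAF mutants, 2 of 3 over the dim limit, while all wild-type arrays were dim. The mean in abi3-6 at 16 DAF was 19.7-fold that at 12 DAF and at least 22.9-fold that of wild type at 16 DAF. JAL22, of the same family, was at 6.27, 6.04 and 7.54 in 16 DAF abi3-6 seeds, against 2.76, 2.75 and 2.75 in 12 DAF abi3-6 seeds, 3.63, 3.15 and 3.40 in 16 DAF wild-type seeds and 3.22, 3.28 and 3.06 in 12 DAF wild-type seeds. At 12 DAF wild type had 2 of 3 arrays over the limit, and abi3-6 none. At 16 DAF abi3-6 was at least 11-fold over its own 12 DAF level and 9.36-fold over wild type.

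AT2G25980, the third jacalin-family gene, was at 6.82, 6.79 and 6.99 in 16 DAF abi3-6 seeds, against 4.84, 4.99 and 4.61 in 12 DAF abi3-6 seeds, 5.02, 5.41 and 5.38 in 16 DAF wild-type seeds and 5.54, 5.14 and 5.10 in 12 DAF wild-type seeds. This gene had the smallest difference between the ages in abi3-6, 2.05 log2 units or 4.15-fold, and the lowest genotype difference at 12 DAF, -0.44. Without replicate 3 the difference was 1.99, just under the rule's threshold. AT5G26280, the TRAF-like gene, was at 8.00, 7.65 and 7.97 in 16 DAF abi3-6 seeds, against 3.72, 3.61 and 3.79 in 12 DAF abi3-6 seeds, 3.59, 3.37 and 3.47 in 16 DAF wild-type seeds and 3.16, 3.40 and 3.13 in 12 DAF wild-type seeds. Its 3 abi3-6 16 DAF arrays had an SD of 0.19, and their mean was 17.9-fold that of abi3-6 at 12 DAF and 21.1-fold that of wild type at 16 DAF.

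JAL33 and JAL34, the other tested genes with a jacalin symbol, both rose in abi3-6, beside 27.1% of all probe sets tested. They rose by 5.35 ± 0.14 and 3.26 ± 0.17 (SE, limma, Benjamini-Hochberg adjusted p = 6.34e-12 and 4.53e-09). Neither passed in wild type (0.09 and 0.12), where 32.0% of all probe sets tested were higher and 30.4% lower. At 12 DAF they averaged 5.99 for JAL33 and 7.49 for JAL34 in abi3-6, and both were dim on all wild-type arrays. AT1G52100 and AT2G25980 have no such symbol, and other lectin genes without one were not counted. Of 3 other TRAF-like genes tested, leaving out AT5G26260, 2 were higher and 1 lower in abi3-6 at 16 DAF, beside 27.1% and 23.5% of all probe sets tested. In wild type 0 were higher and 1 lower, beside 32.0% and 30.4%. AT3G20370 rose by 4.23 ± 0.13 (SE, limma adjusted p = 2.91e-11) and ZW9 by 0.97 ± 0.24 (adjusted p = 0.00359) in abi3-6. AT5G26260, which meets the rule and is given without a test, averaged 9.74 ± 0.41 in 16 DAF abi3-6 seeds (SD, n = 3) and was dim on the 9 other arrays; that mean was at least 95.6-fold over abi3-6 at 12 DAF. AT3G28220 fell by 1.21 ± 0.16 (adjusted p = 2.41e-05). It averaged 9.52 and 10.73 in abi3-6 at 16 and 12 DAF, against 3.19 and 3.69 in wild type at those ages.

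Genes for the breakdown of proteins and their glycans made up 4 of the 31. AT4G01610, a cathepsin B-like cysteine protease, read 13.87, 13.86 and 13.92 in 16 DAF abi3-6 seeds, against 11.68, 11.45 and 11.61 in 12 DAF abi3-6 seeds, 11.01, 11.32 and 11.36 in 16 DAF wild-type seeds and 11.67, 11.44 and 11.76 in 12 DAF wild-type seeds. The 3 arrays of abi3-6 at 16 DAF spanned 0.06 log2 units, the narrowest of all 31 genes, and their mean was 4.93-fold that of abi3-6 at 12 DAF and 6.27-fold that of wild type at 16 DAF. The values are near the top of the array's range of 1.49 to 15.89. In wild type the gene was 0.39 lower at 16 than at 12 DAF, the largest wild-type decrease of the 31.

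Serine carboxypeptidase-like proteins, peptidases or acyltransferases of the secretory pathway, gave scpl44 and scpl50. scpl44 was at 4.45, 4.51 and 6.63 in 16 DAF abi3-6 seeds, against 2.19, 2.16 and 2.18 in 12 DAF abi3-6 seeds, 2.29, 2.23 and 2.27 in 16 DAF wild-type seeds and 2.2, 2.22 and 2.24 in 12 DAF wild-type seeds. All other arrays were dim, but replicates 1 and 2 of abi3-6 at 16 DAF lay 2.15 log2 units under replicate 3 on average. The difference between the ages was 3.02 with all 3 arrays and 2.31 without replicate 3, and the mean of those 3 arrays was at least 4.11-fold over abi3-6 at 12 DAF and over wild type at 16 DAF. scpl50 was at 6.78, 6.05 and 7.03 in 16 DAF abi3-6 seeds, against 4.47, 4.69 and 4.51 in 12 DAF abi3-6 seeds, 4.26, 4.21 and 4.15 in 16 DAF wild-type seeds and 4.08, 4.01 and 3.71 in 12 DAF wild-type seeds. Its 9 other arrays were all over the limit, and the mean of abi3-6 at 16 DAF was 4.18-fold that at 12 DAF and 5.33-fold that of wild type at 16 DAF. ENGase85A, an endo-beta-N-acetylglucosaminidase that frees N-glycans from glycoproteins, was at 5.70, 6.08 and 6.50 in 16 DAF abi3-6 seeds, against 3.69, 4.04 and 3.68 in 12 DAF abi3-6 seeds, 3.75, 4.13 and 4.14 in 16 DAF wild-type seeds and 3.67, 3.68 and 4.10 in 12 DAF wild-type seeds. The other groups overlapped each other, and the abi3-6 16 DAF mean was 4.90-fold that of abi3-6 at 12 DAF.

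Of 13 other serine carboxypeptidase-like genes tested, 6 were higher and 3 lower in abi3-6 at 16 than at 12 DAF (limma, adjusted p under 0.05). Over all probe sets tested the shares were 27.1% and 23.5%. In wild type 1 was higher and 8 lower, beside 32.0% and 30.4%. The difference between those 2 changes was tested: it passed upward for 9 and downward for 1, beside 21.2% and 18.9% of all probe sets. scpl20 was at 8.00, 8.03 and 8.82 in 16 DAF abi3-6 seeds, against 4.91, 4.25 and 4.87 in 12 DAF abi3-6 seeds, 2.77, 1.89 and 1.90 in 16 DAF wild-type seeds and 4.32, 5.33 and 4.55 in 12 DAF wild-type seeds. It rose by 3.61 ± 0.32 (SE, limma adjusted p = 6.29e-07) in abi3-6 and fell at least 2.97-fold in wild type. SCPL27 rose at least 1.76-fold (adjusted p = 3.05e-05) and SCPL45 fell by 1.88 ± 0.31 (adjusted p = 0.000208) in abi3-6. SCPL27 entered the test only through its abi3-6 16 DAF arrays, so its adjusted p is a description.

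Among 8 other papain-type cysteine proteases tested, leaving out AT1G29090, 4 were higher and 3 lower in abi3-6, beside 27.1% and 23.5% of all probe sets tested. In wild type 2 were higher and 2 lower, beside 32.0% and 30.4%. CP1, also on the list of germination genes, rose by 8.14 ± 0.40 (SE, limma, Benjamini-Hochberg adjusted p = 2.59e-09) in abi3-6, and AT3G19390 at least 3.03-fold (adjusted p = 2.62e-05) to a mean of 4.76, under the rule's level of 5. AT3G19390 entered the test only through its abi3-6 16 DAF arrays, so its adjusted p is a description. AT1G29090, which meets the rule and is given without a test, averaged 9.02 ± 0.98 in 16 DAF abi3-6 seeds (SD, n = 3) and was dim on the 9 other arrays; that mean was at least 58.1-fold over abi3-6 at 12 DAF. AT3G54940 fell by 3.17 ± 0.41 (adjusted p = 2.31e-05), or by 2.46 without replicate 3 of abi3-6 at 16 DAF. Of 4 subtilases, a family of serine proteases, 2 were higher and 0 lower in abi3-6, beside the same 27.1% and 23.5%. They were SBT1.3 and ARA12, each higher by 0.83 (SE 0.18 and 0.15, limma adjusted p = 0.00177 and 0.000488).

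Metabolic enzymes formed the largest role group, 6 genes, with a median difference between the ages in abi3-6 of 2.99 log2 units and a range of 2.55 to 4.80; with the 4 that were dim at 12 DAF set at the limit the median was 2.69. NDB3, an external alternative NAD(P)H dehydrogenase of mitochondria, which passes electrons to ubiquinone without pumping protons, was at 7.74, 7.54 and 7.88 in 16 DAF abi3-6 seeds, against 2.93, 2.78 and 3.04 in 12 DAF abi3-6 seeds, 2.98, 2.92 and 2.94 in 16 DAF wild-type seeds and 2.86, 3.04 and 2.48 in 12 DAF wild-type seeds. The abi3-6 16 DAF arrays had an SD of 0.17 and lay at least 23.5-fold over the dim arrays of the 3 other groups. Replicate 3 made little difference here, with 4.72 without it and 4.80 with it. AT1G69526, an S-adenosylmethionine-dependent methyltransferase family gene, was at 5.86, 5.73 and 6.33 in 16 DAF abi3-6 seeds, against 2.40, 2.39 and 2.49 in 12 DAF abi3-6 seeds, 2.60, 2.53 and 2.66 in 16 DAF wild-type seeds and 2.47, 2.55 and 2.51 in 12 DAF wild-type seeds. This gene too was dim on all 9 other arrays, and the bound was at least 7.02-fold.

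AT5G05890, a UDP-glycosyltransferase, of a family that attaches sugars to hormones and secondary metabolites, was at 6.30, 5.93 and 6.46 in 16 DAF abi3-6 seeds, against 3.17, 3.46 and 2.96 in 12 DAF abi3-6 seeds, 3.11, 3.06 and 3.10 in 16 DAF wild-type seeds and 3.04, 3.07 and 3.06 in 12 DAF wild-type seeds. All wild-type arrays were dim and 2 of 3 abi3-6 arrays at 12 DAF were just over the limit. The mean in abi3-6 at 16 DAF was 8.20-fold that at 12 DAF. AT4G29690, an alkaline-phosphatase-like gene related to nucleotide pyrophosphatases, was at 4.84, 4.88 and 6.82 in 16 DAF abi3-6 seeds, against 2.61, 2.69 and 2.45 in 12 DAF abi3-6 seeds, 2.72, 2.60 and 2.71 in 16 DAF wild-type seeds and 2.47, 2.58 and 2.54 in 12 DAF wild-type seeds. Replicate 3 stood 1.96 over the mean of replicates 1 and 2, and without it the difference between the ages was 2.28 in place of 2.93. AT1G07440, a tropinone reductase-like oxidoreductase gene, was at 5.42, 5.62 and 6.22 in 16 DAF abi3-6 seeds, against 3.16, 2.85 and 3.54 in 12 DAF abi3-6 seeds, 3.02, 3.01 and 2.80 in 16 DAF wild-type seeds and 2.78, 2.43 and 2.42 in 12 DAF wild-type seeds. Its wild-type difference between the ages, 0.40, was the highest value among the 31, but all its wild-type arrays were dim, so it gives no order. The abi3-6 mean at 16 DAF was 5.96-fold that at 12 DAF, where 1 of 3 arrays was over the limit, so that fold includes dim values. AT2G24560, a GDSL-motif lipase-like gene, was at 5.75, 5.14 and 5.16 in 16 DAF abi3-6 seeds, against 2.78, 2.88 and 2.74 in 12 DAF abi3-6 seeds, 2.78, 2.76 and 2.77 in 16 DAF wild-type seeds and 2.75, 2.78 and 2.77 in 12 DAF wild-type seeds. Replicate 1, not replicate 3, was the highest here, and the bound over the 9 dim arrays was at least 4.55-fold.

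Of 35 tested genes with a UDP-glycosyltransferase symbol, which AT5G05890 and its neighbour AT5G05880 lack, 13 were higher and 6 lower in abi3-6 at 16 than at 12 DAF, beside 27.1% and 23.5% of all probe sets tested. In wild type 16 were higher and 5 lower, beside 32.0% and 30.4%. UGT85A2 rose by 3.49 ± 0.23 and UGT85A5 by 3.47 ± 0.18 in abi3-6 (SE, limma, Benjamini-Hochberg adjusted p = 5.03e-08 and 3.98e-09), and both also rose in wild type, UGT85A2 at least 4.12-fold and UGT85A5 by 5.37 ± 0.18. UGT74D1 fell by 3.06 ± 0.27 (adjusted p = 6.3e-07) in abi3-6. Of 6 glutathione transferases, which conjugate glutathione to reactive compounds, 1 was higher and 5 lower in abi3-6, beside the same 27.1% and 23.5%. In wild type 0 were higher and 4 lower, beside the same 32.0% and 30.4%. GSTU27 rose by 1.47 ± 0.18 (adjusted p = 1.73e-05) and GSTU16 fell by 1.07 ± 0.18 (adjusted p = 0.000268).

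Of 3 other alternative NAD(P)H dehydrogenases tested, 1 was higher and 0 lower in abi3-6, against 1 higher and 1 lower in wild type. Over all probe sets tested, 27.1% were higher and 23.5% lower in abi3-6, and 32.0% and 30.4% in wild type. NDB2 was at 7.10, 7.01 and 7.23 in 16 DAF abi3-6 seeds, against 6.66, 6.20 and 5.88 in 12 DAF abi3-6 seeds, 9.56, 9.36 and 9.32 in 16 DAF wild-type seeds and 7.41, 7.27 and 7.46 in 12 DAF wild-type seeds. It was highest in wild type at 16 DAF, and rose by 0.87 ± 0.18 in abi3-6 and by 2.03 ± 0.18 in wild type (SE, limma adjusted p = 0.00102 and 2.58e-07). Of 7 peptide and nitrate transporters 0 were higher and 4 lower in abi3-6, and 2 were higher and 5 lower in wild type, beside the shares above. AT1G27040 fell by 3.43 ± 0.31 in abi3-6 (SE, limma adjusted p = 7.5e-07).

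Stress and defence genes gave 3 of the 31. THI2.1, a thionin, a small antimicrobial peptide of the cell wall and vacuole that jasmonate induces in seedlings, was at 6.76, 6.40 and 7.58 in 16 DAF abi3-6 seeds, against 2.60, 2.68 and 2.61 in 12 DAF abi3-6 seeds, 2.97, 2.75 and 2.84 in 16 DAF wild-type seeds and 2.90, 2.80 and 2.83 in 12 DAF wild-type seeds. The 9 other arrays were dim, and the bound was at least 13.5-fold. AT3G62550, a gene of the universal stress protein family, was at 7.24, 6.69 and 7.54 in 16 DAF abi3-6 seeds, against 2.71, 2.69 and 2.73 in 12 DAF abi3-6 seeds, 2.76, 2.64 and 2.30 in 16 DAF wild-type seeds and 2.63, 2.64 and 2.61 in 12 DAF wild-type seeds. It too was dim outside abi3-6 at 16 DAF, and at least 15.9-fold higher there. AT2G03850, a gene of the late embryogenesis abundant (LEA) family, whose members protect cells on drying, was at 5.01, 5.73 and 6.31 in 16 DAF abi3-6 seeds, against 2.99, 3.22 and 2.98 in 12 DAF abi3-6 seeds, 3.08, 3.06 and 2.98 in 16 DAF wild-type seeds and 2.92, 3.09 and 2.94 in 12 DAF wild-type seeds. The mean of abi3-6 at 16 DAF was 6.17-fold that at 12 DAF and at least 5.75-fold that of wild type at 16 DAF, with 1 of the 9 other arrays over the limit. That array was of abi3-6 at 12 DAF, so the 6.17-fold includes dim values.

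THI2.2, the other thionin tested, was at 2.38, 2.63 and 2.38 in 16 DAF abi3-6 seeds, against 5.96, 6.14 and 6.32 in 12 DAF abi3-6 seeds, 2.35, 2.42 and 2.32 in 16 DAF wild-type seeds and 2.37, 2.29 and 2.32 in 12 DAF wild-type seeds. It was thus over the dim limit on the abi3-6 12 DAF arrays and dim on all others, where THI2.1 was over it at 16 DAF. THI2.2 fell at least 7.88-fold in abi3-6 (limma, Benjamini-Hochberg adjusted p = 1.62e-10) and did not pass in wild type (0.04 ± 0.13 SE). It entered the test only through its abi3-6 12 DAF arrays, so its adjusted p is a description. The 1 other defence gene tested, the defensin PDF1.2, did not pass in either genotype (-0.04 ± 0.19 SE in abi3-6, 0.36 ± 0.19 in wild type). Of 2 senescence genes WRKY6, a transcription factor, rose by 0.47 ± 0.17 (SE, limma adjusted p = 0.0311) and SAG29, a sugar transporter, fell by 4.11 ± 0.27 (adjusted p = 4.93e-08) in abi3-6, and each moved the same way in wild type. The WRKY6 call was lost without replicate 2 or 3 of abi3-6 at 16 DAF (adjusted p = 0.12 and 0.0625) and without replicate 2 or 3 of abi3-6 at 12 DAF (0.0955 and 0.0893). Of 15 loci on the list of germination and seedling genes 2 were tested, CP1 and ICL of the glyoxylate cycle. Both rose in both genotypes, beside 27.1% of all probe sets tested in abi3-6 and 32.0% in wild type. ICL rose by 0.66 ± 0.14 in abi3-6 (SE, limma adjusted p = 0.00115) and by 1.19 ± 0.14 in wild type (adjusted p = 3.96e-06).

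A cytoskeletal gene, a regulator and membrane proteins made up 4 of the 31, with differences between the ages of 2.11 to 2.69 in abi3-6. TUB1, a beta tubulin, subunit of microtubules, was at 4.84, 4.90 and 6.50 in 16 DAF abi3-6 seeds, against 2.65, 3.05 and 2.46 in 12 DAF abi3-6 seeds, 2.54, 2.52 and 2.62 in 16 DAF wild-type seeds and 2.5, 2.49 and 2.40 in 12 DAF wild-type seeds. The 9 other arrays were dim. Replicate 3 stood 1.62 over the mean of the other two, and the difference between the ages was 2.69 with it and 2.15 without. AT5G58900, a MYB factor related to DIVARICATA, was at 4.98, 5.49 and 6.28 in 16 DAF abi3-6 seeds, against 3.79, 3.40 and 3.13 in 12 DAF abi3-6 seeds, 3.20, 3.13 and 3.16 in 16 DAF wild-type seeds and 3.07, 3.13 and 3.12 in 12 DAF wild-type seeds. Its abi3-6 arrays at 12 DAF reached 3.79, and the gap to the lowest array at 16 DAF was 1.19. Without replicate 3 the difference between the ages was 1.80, the smallest of the 31 genes.

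AT1G49470, a membrane protein gene of the DUF716 family, was at 5.17, 5.51 and 6.45 in 16 DAF abi3-6 seeds, against 3.43, 3.39 and 3.35 in 12 DAF abi3-6 seeds, 2.88, 3.20 and 2.82 in 16 DAF wild-type seeds and 2.67, 3.14 and 2.70 in 12 DAF wild-type seeds. Here abi3-6 was over the limit on all arrays at 12 DAF, and its mean at 16 DAF was 4.99-fold higher. AT5G02940, an ion channel of the plastid envelope, was at 4.63, 5.28 and 5.30 in 16 DAF abi3-6 seeds, against 2.96, 2.94 and 3.00 in 12 DAF abi3-6 seeds, 2.99, 3.10 and 2.98 in 16 DAF wild-type seeds and 2.96, 2.93 and 2.96 in 12 DAF wild-type seeds. All arrays other than the 3 of abi3-6 at 16 DAF were dim, and the bound was at least 3.76-fold.

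Of the 4 other beta tubulins tested, 1 rose, 1 fell and 2 did not pass in abi3-6 between 12 and 16 DAF, and all 4 fell in wild type. Over all probe sets tested, 27.1% rose and 23.5% fell in abi3-6, and 30.4% fell in wild type. TUB5 was at 6.76, 6.91 and 7.93 in 16 DAF abi3-6 seeds, against 5.16, 5.21 and 5.18 in 12 DAF abi3-6 seeds, 2.57, 2.51 and 2.67 in 16 DAF wild-type seeds and 3.30, 3.34 and 3.33 in 12 DAF wild-type seeds. It rose by 2.02 ± 0.23 in abi3-6 (SE, limma, Benjamini-Hochberg adjusted p = 7.57e-06) and fell at least 1.12-fold in wild type. TUB6 was at 9.34, 9.32 and 9.67 in 16 DAF abi3-6 seeds, against 9.84, 9.66 and 9.62 in 12 DAF abi3-6 seeds, 3.56, 3.35 and 3.63 in 16 DAF wild-type seeds and 6.78, 7.20 and 7.11 in 12 DAF wild-type seeds. Its change was -0.27 ± 0.15 (adjusted p = 0.172) in abi3-6 and -3.52 ± 0.15 in wild type (adjusted p = 3.84e-10). TUB7 fell by 1.02 ± 0.18 in abi3-6 (adjusted p = 0.000369) and by 2.37 ± 0.18 in wild type. The change in abi3-6 exceeded that in wild type for all 4 (limma interaction, adjusted p under 0.05), beside 21.2% of all probe sets tested. TUB9 did not pass, however, after each array was centred on its median (limma interaction, adjusted p = 0.0584).

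**Figure D4:**
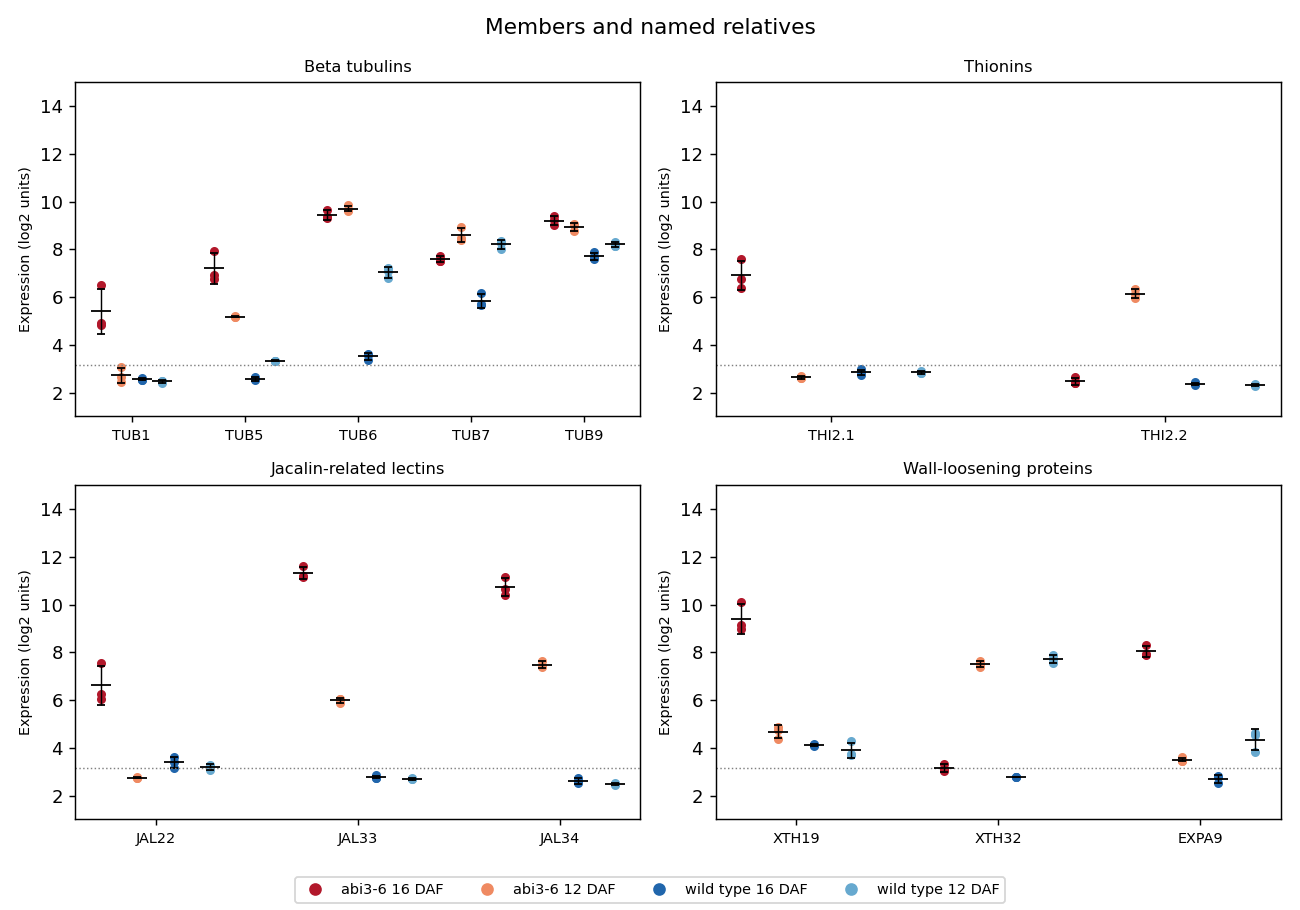
Points are single arrays, black dashes group means and bars SDs (n = 3 arrays) in log2 units, for TUB1, THI2.1, JAL22 and XTH19 beside relatives named in the text; the dotted line is the dim limit of 3.16. TUB5, TUB6, TUB7 and TUB9 lie lower in wild type at 16 than at 12 DAF, and THI2.2 is over the limit in abi3-6 at 12 DAF and not at 16 DAF.

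The last 5 genes are given without a role. AT3G53670 was at 8.79, 8.90 and 9.0 in 16 DAF abi3-6 seeds, against 6.34, 6.66 and 6.03 in 12 DAF abi3-6 seeds, 5.34, 5.33 and 5.33 in 16 DAF wild-type seeds and 5.41, 6.05 and 5.55 in 12 DAF wild-type seeds. The 3 abi3-6 16 DAF arrays were close together (SD 0.11), and their mean was 5.87-fold that of abi3-6 at 12 DAF and 11.8-fold that of wild type at 16 DAF. AT4G19160 was at 9.04, 8.87 and 9.56 in 16 DAF abi3-6 seeds, against 7.30, 6.70 and 7.04 in 12 DAF abi3-6 seeds, 6.65, 6.45 and 6.97 in 16 DAF wild-type seeds and 6.78, 5.92 and 6.99 in 12 DAF wild-type seeds. All its arrays were over the limit, and the mean in abi3-6 at 16 DAF was 4.41-fold that at 12 DAF. AT3G53250 was at 5.42, 5.25 and 6.65 in 16 DAF abi3-6 seeds, against 2.75, 2.81 and 2.95 in 12 DAF abi3-6 seeds, 3.18, 3.04 and 3.13 in 16 DAF wild-type seeds and 2.74, 3.11 and 2.86 in 12 DAF wild-type seeds. With 1 of the 9 other arrays over the limit, the abi3-6 mean at 16 DAF was 6.30-fold that of wild type at 16 DAF and at least 6.11-fold that of abi3-6 at 12 DAF. That array was of wild type at 16 DAF, so the 6.30-fold includes dim values.

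AT5G13100 was at 5.25, 5.41 and 6.90 in 16 DAF abi3-6 seeds, against 3.18, 3.50 and 3.30 in 12 DAF abi3-6 seeds, 3.05, 3.30 and 3.06 in 16 DAF wild-type seeds and 3.30, 3.40 and 3.00 in 12 DAF wild-type seeds. Replicate 3 stood 1.57 above the mean of the 2 others of its group, and the mean of all 3 was 5.77-fold that of abi3-6 at 12 DAF. AT5G66490 was at 5.09, 4.69 and 5.35 in 16 DAF abi3-6 seeds, against 2.90, 2.88 and 2.91 in 12 DAF abi3-6 seeds, 3.60, 3.30 and 3.06 in 16 DAF wild-type seeds and 3.16, 2.97 and 3.11 in 12 DAF wild-type seeds. Its highest wild-type array, 3.60, came closest to the mutant values, with the smallest gap of the 31 genes. The mean in abi3-6 at 16 DAF was 3.31-fold that of wild type at 16 DAF.

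Near the thresholds of the rule, AT2G25980, scpl50 and AT5G02940 were the smallest differences inside it, at 2.05, 2.06 and 2.11. Just outside were AT1G11210, AT1G59960 and AT1G73530, at 1.99, 1.93 and 1.92. On the wild-type threshold AT1G07440 (0.40), AT4G01610 (-0.39) and AT3G53670 (-0.34) were inside and AT4G32340 (0.70), BGLU42 (0.78) and AT1G15010 (0.92) outside. On the 12 DAF threshold AT1G52100 (0.80), XTH19 (0.77) and AT3G53670 (0.67) were inside and TBL39 (0.81), AT3G53980 (0.97) and AT5G23830 (1.02) outside. On the level, AT5G66490 (5.04), AT5G02940 (5.07) and scpl44 (5.20) were inside and AT1G31950 (4.94), AT2G22890 (4.92) and FHL (4.91) outside.

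Among genes outside the 31, 5 had the highest correlation with their mean profile over the 12 arrays, a description in which arrays of 1 group share their treatment. AT1G29090 (r = 0.998), AT1G54020 (0.997), AT5G26260 (0.996), AT5G35735 (0.995) and AT1G31710 (0.993) were all dim outside abi3-6 at 16 DAF. AT1G54020, AT5G35735 and AT1G31710 stayed under the rule's level of 5, with means of 4.32 ± 0.24, 4.22 ± 0.24 and 4.61 ± 0.63 in abi3-6 at 16 DAF (SD, n = 3). AT5G35735 also missed the rule's difference of 2 between the ages in abi3-6, at 1.85.

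AT3G53670 is the member with a second probe set of its own, which the rule did not select. It rose by 1.38 ± 0.14 (SE, limma, Benjamini-Hochberg adjusted p = 3.04e-06) in abi3-6, at least 1.83-fold, with 4.03 ± 0.28 at 16 DAF against dim arrays at 12 DAF (SD, n = 3). In wild type the change was 0.09 ± 0.14 (adjusted p = 0.619), and the difference between the genotypes' changes was 1.29 ± 0.20 (adjusted p = 0.000211). All 3 abi3-6 16 DAF arrays of this probe set were over the dim limit and the 9 others under it. It thus entered the test only through the group in which it was high, and its adjusted p values are a description. The selected probe set differed by 2.55 between the same groups.

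Genes beside the 31 in the TAIR10.1 gene order give values that the rule did not use, though from the same arrays. Of 60 nearest measured neighbours 35 were tested, 22 of them directly adjacent. In abi3-6 14 were higher and 5 lower at 16 than at 12 DAF (limma, adjusted p under 0.05), beside 27.1% and 23.5% of all probe sets tested, and the median change was 0.35. In wild type 15 were higher and 7 lower, beside 32.0% and 30.4%, with a median of 0.31. A rise of at least 2 log2 units was found for 4 in abi3-6 and for 3 in wild type, and these and AT5G26270 were singled out after their values were seen. AT1G15010, next to scpl50, was at 7.14, 6.34 and 7.75 in 16 DAF abi3-6 seeds, against 2.05, 2.24 and 3.23 in 12 DAF abi3-6 seeds, 3.58, 3.02 and 2.24 in 16 DAF wild-type seeds and 1.97, 2.05 and 2.07 in 12 DAF wild-type seeds. It rose by 4.57 ± 0.38 in abi3-6 (SE, limma adjusted p = 4.11e-07) and missed the threshold in wild type (0.92 ± 0.38, adjusted p = 0.0509). AT5G62350, next to AT5G62340 and of the same inhibitor family, rose by 2.14 ± 0.20 in abi3-6 and 0.89 ± 0.20 in wild type (adjusted p = 1.01e-06 and 0.00128).

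AT5G26270, between AT5G26260 and AT5G26280, was at 4.63, 3.96 and 4.57 in 16 DAF abi3-6 seeds, against 2.93, 2.65 and 2.29 in 12 DAF abi3-6 seeds, 2.36, 2.34 and 2.35 in 16 DAF wild-type seeds and 2.31, 2.33 and 2.33 in 12 DAF wild-type seeds. It rose at least 2.33-fold in abi3-6 (limma, Benjamini-Hochberg adjusted p = 4.18e-06), and was highest in abi3-6 at 16 DAF, as AT5G26260 and AT5G26280 were by the rule. AT5G26270 entered the test only through its abi3-6 16 DAF arrays, so its adjusted p is a description. AT5G05880, the UDP-glycosyltransferase gene before AT5G05890, rose in both genotypes, by 2.65 ± 0.17 in abi3-6 and by 4.05 ± 0.17 in wild type. AT5G66470 rose by 2.29 ± 0.22 in abi3-6 and by 1.02 ± 0.22 in wild type. The other rises of at least 2 in wild type were those of AT1G67340, by 2.57 ± 0.19 beside 1.62 ± 0.19 in abi3-6, and of AGL94, at least 3.80-fold, with all abi3-6 arrays dim. How far probe sets of neighbouring relatives read each other's transcripts was not tested.

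**Figure D5:**
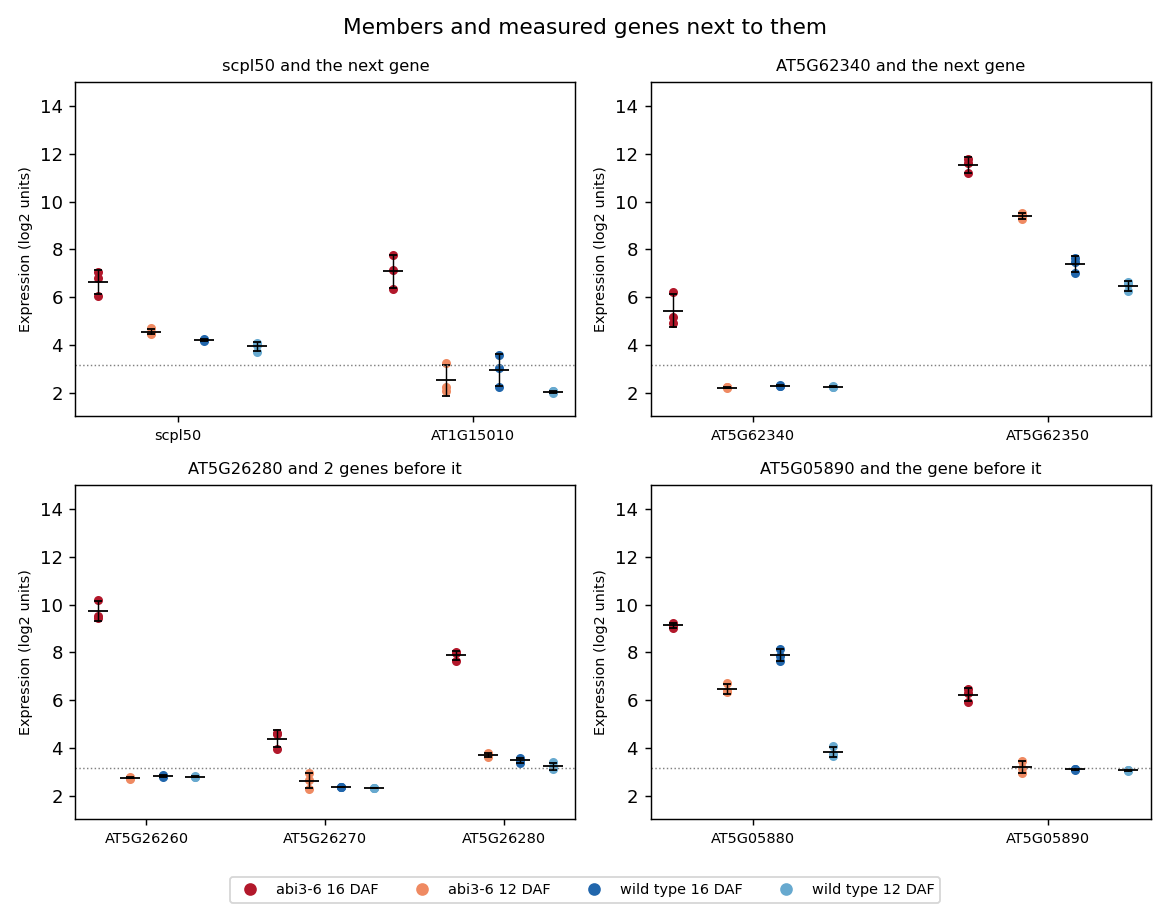
Points are single arrays, black dashes group means and bars SDs (n = 3 arrays) in log2 units, for 4 genes of the set beside measured genes near them. The dotted line is the dim limit of 3.16. AT1G15010 and AT5G26270 are highest in abi3-6 at 16 DAF, whereas AT5G05880 is also high in wild type at 16 DAF.

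Markers of other seed and fruit tissues moved between the same groups. The 4 measured of 8 seed coat markers did not move together. Their summed level was 11.16 to 11.46 log2 units in 16 DAF abi3-6 seeds, 10.29 to 10.71 in 12 DAF abi3-6 seeds, 9.66 to 9.97 in 16 DAF wild-type seeds and 9.89 to 10.13 in 12 DAF wild-type seeds. Nearly all of it came from the subtilase ARA12, at 11.11 to 11.38 in 16 DAF abi3-6 seeds, 10.26 to 10.68 in 12 DAF abi3-6 seeds, 9.61 to 9.94 in 16 DAF wild-type seeds and 9.83 to 10.06 in 12 DAF wild-type seeds. BAN, an anthocyanidin reductase of tannin synthesis, averaged 2.57 ± 0.37 in 16 DAF abi3-6 seeds and 3.08 ± 0.12 in 12 DAF abi3-6 seeds, against 2.42 ± 0.35 in 16 DAF and 3.18 ± 0.02 in 12 DAF wild-type seeds (SD, n = 3), and was dim on all arrays at 16 DAF. AT3G50990 was dim on all 12 arrays. DFR, an enzyme of flavonoid synthesis in the seed coat, was at 6.29, 6.04 and 7.05 in 16 DAF abi3-6 seeds, 4.09, 3.50 and 3.74 in 12 DAF abi3-6 seeds, 3.86, 3.69 and 3.65 in 16 DAF wild-type seeds and 5.54, 4.80 and 5.05 in 12 DAF wild-type seeds. DFR was thus highest where the 31 genes were highest, with replicate 3 on top, unlike BAN. The 1 measured of 4 endosperm markers, AT5G44360, was lowest there, at 5.85, 6.13 and 3.70, with replicate 3 at the bottom, against 9.63 to 9.91 in 12 DAF abi3-6 seeds, 7.52 to 7.69 in 16 DAF wild-type seeds and 10.41 to 10.58 in 12 DAF wild-type seeds.

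The 2 measured of 6 silique wall markers summed to 4.06 to 4.97 in 16 DAF abi3-6 seeds, 3.57 to 3.75 in 12 DAF abi3-6 seeds, 3.47 to 3.86 in 16 DAF wild-type seeds and 4.05 to 4.87 in 12 DAF wild-type seeds. Of these markers NUB was dim on all arrays, so the sum moved with ALC alone. None of 4 leaf markers had a probe set of its own in the annotation used. The array holds 6 pairs of 3′ and 5′ control probe sets, whose difference bears on RNA quality and labelling. In one actin pair it averaged 0.37 ± 0.03 in 16 DAF abi3-6 seeds, 0.37 ± 0.09 in 12 DAF abi3-6 seeds, -0.21 ± 0.02 in 16 DAF wild-type seeds and -0.37 ± 0.17 in 12 DAF wild-type seeds (SD, n = 3, log2). The genotypes did not overlap in that pair, whereas the abi3-6 ages did. In the other actin pair, whose 5′ probe set stayed between 5.88 and 6.17 on all arrays, the average was 5.04 ± 0.35 in 16 DAF abi3-6 seeds, 5.22 ± 0.08 in 12 DAF abi3-6 seeds, 4.71 ± 0.14 in 16 DAF wild-type seeds and 4.89 ± 0.14 in 12 DAF wild-type seeds. One ubiquitin pair averaged 0.18 ± 0.09 in 16 DAF abi3-6 seeds and -0.17 ± 0.10 in 12 DAF abi3-6 seeds, with no overlap between these ages, against 0.04 ± 0.02 in 16 DAF and -0.09 ± 0.19 in 12 DAF wild-type seeds. The other ubiquitin pair was higher in abi3-6 than in wild-type seeds by group mean at both ages, and one GAPDH pair was lower in abi3-6 at both. The part of these shifts in the values of the 31 genes was not tested.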

How the data were processed

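Seeds of homozygous abi3-6 and wild-type Col-0 plants at 16 and 12 DAF were each measured on 3 arrays, grouped by the genotype and age labels. Per the labels' protocols, column-purified total RNA was copied into biotin-labelled cRNA for 1-colour Affymetrix arrays. The deposited table holds 22810 probe sets, 64 of them controls. Per the submitters' processing notes, GCOS 1.3 and GCRMA 2.0.0 were used, with no role or order given. The authors' deposited values were taken to be log2 units, a scale inferred from a range of 1.49 to 15.89 and array medians of 4.05 to 4.46, since no label states it. A common centring of the arrays is not given in the sources used here, and GCRMA's probe-sequence background can compress or stretch differences of dim probe sets.

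The platform annotation pairs 13513 probe sets with 1 gene, 503 with several and leaves 8730 unnamed; 13436 of the first matched the TAIR10.1 gene table, used for names and gene order only. The match was by gene identifier. Of the 31 genes 30 matched in that way, and AT3G53250 did not but was placed in the gene order by its locus. The rule was applied to group means. Probe sets with at least 3 of 12 arrays at or over the 40th percentile of all values (3.16) were tested, 14873 in all. A probe set over that limit in 1 group only entered the test through that group, so its adjusted p is a description. Such probe sets on the lists or among the neighbours remain in the counts. Limma 3.58.1 in R 4.3.3 fitted a mean per group to all 12 arrays (8 residual and 5.41 prior degrees of freedom), two-sided, with Benjamini-Hochberg adjustment over the probe sets tested and a threshold of 0.05. The fit was tested on simulated data. A fold against a group dim on all arrays was bounded at the dim limit. Where only some arrays of a group were dim, the fold uses their deposited values without a bound. The number of arrays limits the precision. Other work used pandas 2.3.3 and numpy 2.4.6 under Python 3.11.15, with figures from matplotlib 3.10.9.

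The members and gene lists were chosen with earlier results of these data known, and the lists of jacalin-related lectins, serine carboxypeptidase-like genes, beta tubulins, alternative NAD(P)H dehydrogenases and thionins after the members were seen. Lists for lipid transfer proteins, GDSL enzymes, aspartyl proteases, germin-like, GASA and SAUR genes, sugar transporters and jasmonate synthesis matched 0 loci by the words used, and of 6 class III peroxidases 0 were tested. The aquaporin list matched only AQI, an interactor of aquaporins, which rose by 0.85 in abi3-6 (limma, adjusted p = 4.66e-05). Every member is named; from each list, up to 2 rises and 1 fall with the largest changes in abi3-6, leaving out AT5G26260 and AT1G29090, which meet the rule; up to 3 genes on either side of each threshold; and the 5 most alike genes. Alternatives were median centring, quantile normalization, no filter, array weights, the replicate number as a block, other rule thresholds and leaving out each array. The labels' descriptions number replicates 1 to 3 in each group, where the titles of the wild-type 12 DAF arrays have 2-1 to 2-3. Deviations from the group means correlated at -0.02 to 0.16 (mean 0.05) between same-numbered arrays of different groups. Between differently numbered arrays they correlated at -0.13 to 0.08 (mean -0.03). Same-numbered arrays were thus slightly more alike, but all correlations were low and the numbers were not taken to pair samples.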

Additional observations from a re-analysis of the deposited data

Results flagged for a closer look

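For the genes named beside the 31, the late change in abi3-6 minus the late change in wild type was tested (limma interaction, log2 units, Benjamini-Hochberg adjusted p under 0.05), and those that passed differ between the genotypes by that test. Of the 42 genes or probe sets run, 19 were dim on all arrays of at least 1 group, and their differences are fitted values and not measured sizes. AT3G19390, SCPL27, THI2.2, AT5G26270, AGL94 and the second probe set of AT3G53670 were over the limit in 1 group only. They entered the test through that group, so their calls are a description. Among proteases the difference was 6.53 for CP1, 6.15 for scpl20, 2.52 for AT3G19390, 2.32 for SBT1.3, 1.77 for SCPL27, 0.94 for ARA12 and -3.54 for AT3G54940. Among lectin and TRAF-like genes it was 5.26 for JAL33, 3.98 for AT3G20370, 3.14 for JAL34, 1.27 for ZW9 and -0.71 for AT3G28220. For wall genes it was 6.16 for EXPA9, 1.32 for EXPA20, 0.59 for XTH32 and -1.09 for PME61. Beta tubulins gave 3.25 for TUB6, 2.76 for TUB5, 1.36 for TUB7 and 0.75 for TUB9, while the thionin THI2.2 gave -3.71.

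Enzymes of metabolism gave 1.45 for GSTU27, 1.33 for UGT85A2, -0.53 for ICL, -0.99 for GSTU16, -1.16 for NDB2, -1.90 for UGT85A5 and -3.02 for UGT74D1. Of the nearest measured neighbours of members, not all of them adjacent, the difference was 3.65 for AT1G15010, 1.73 for AT5G26270, 1.27 for AT5G66470, 1.24 for AT5G62350, -0.95 for AT1G67340, -1.39 for AT5G05880 and -2.36 for AGL94. The second probe set of AT3G53670 gave 1.29. The calls of ICL, XTH32 and AT3G28220 were lost when some arrays were left out, as was that of PME61 with no filter (adjusted p = 0.0517). For ICL the adjusted p rose to between 0.0653 and 0.104 without any of 8 arrays, and for XTH32 to between 0.0524 and 0.0662 without replicate 3 of abi3-6 at 16 DAF, replicate 2 or 3 of abi3-6 at 12 DAF or replicate 1 of wild type at 12 DAF. For AT3G28220 it was 0.0555 without replicate 1 of abi3-6 at 12 DAF.

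The rule's pattern was also present in data that the report does not use. It was met by 38 probe sets with no gene in the annotation, or 0.435% of the unnamed, beside 0.229% of the 1-gene probe sets as members. Their abi3-6 means at 16 DAF exceeded those at 12 DAF by 2.16 to 7.79, with a median of 3.32. It was met by 2 probe sets with several genes as well. That of CYP71B20 and CYP71B19 averaged 5.12 ± 0.52 in 16 DAF abi3-6 seeds, 2.54 ± 0.05 in 12 DAF abi3-6 seeds, 2.80 ± 0.14 in 16 DAF wild-type seeds and 2.58 ± 0.04 in 12 DAF wild-type seeds (SD, n = 3). That of AT1G53890 and AT1G53870 averaged 5.47 ± 0.14 in 16 DAF abi3-6 seeds, 3.01 ± 0.05 in 12 DAF abi3-6 seeds, 3.27 ± 0.13 in 16 DAF wild-type seeds and 3.00 ± 0.02 in 12 DAF wild-type seeds.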

How the results depend on the processing

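The 31 genes became 28 after each array was centred on its median and 29 after quantile normalization, with 28 of the 31 shared in each case. Group medians in place of means gave 27, of which 24 were shared. A threshold of 1.5 on the difference between the ages gave 40 genes and a threshold of 2.5 gave 22. With each array left out in turn the number ran from 22, without replicate 3 of abi3-6 at 16 DAF, to 37, without replicate 2 of that group. Of 465 recomputed differences between the ages in abi3-6, 458 moved by less than 1 SD of the abi3-6 16 DAF arrays, 7 moved by more and 0 changed sign. Their range was 1.80 to 5.55. Leaving out a wild-type array cannot change this difference, and leaving out 1 abi3-6 16 DAF array cannot move it by that SD. The rule also chose differences far from 0. Many of these outcomes were thus fixed in advance, and no stability is read from the counts. Centring shifted the median of all probe sets tested to 0.31 for the ages in wild type, -0.42 for the genotypes at 16 DAF, -0.15 at 12 DAF and -0.26 for the interaction, against 0.07, -0.03, -0.00 and -0.01 as deposited. The share of calls that were higher became 64.8% in wild type (51.3% as deposited), 34.1% for the genotypes at 16 DAF (50.7%, and 37.3% with no filter), 41.9% at 12 DAF (53.3%) and 35.7% for the interaction (52.8%). The interaction of AQI was 0.06 as deposited and -0.18 after centring, neither past the threshold. Quantile normalization ended the interaction calls of ICL (-0.21, adjusted p = 0.4) and AT3G28220 (-0.58, adjusted p = 0.0572), and centring those of XTH32 (0.35, adjusted p = 0.14) and TUB9 (0.52, adjusted p = 0.0584). The replicate number as a block, which was not taken to pair samples, gave 7571 probe sets for the ages in abi3-6 in place of 7522 and 9293 in place of 9281 in wild type. It gave 7555 in place of 7560 for the genotypes at 12 DAF, 10456 in place of 10439 at 16 DAF and 6002 in place of 5971 for the interaction, in which AT1G27040 passed with the block (adjusted p = 0.0178); it changed no other call in abi3-6 or in the interaction among the named genes refitted. Array weights changed none of those calls. Changes in abi3-6 that did not pass turned sign for AGL94 after quantile normalization (-0.03) and for PDF1.2, from -0.21 to 0.21 with 1 array left out (0.06 without replicate 3 of abi3-6 at 16 DAF, 0.21 without replicate 3 of that genotype at 12 DAF). Promoter motifs were not run, since no promoter sequence was used here. Signals under the dim limit give no order, so folds from dim groups are bounds.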
